A study of Mus musculus with 12 samples.

Results

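The uninjured kidney of Krt20 conditional knockout mice was compared with that of wild-type mice. The members are the 3 cKO sham and the 3 WT sham libraries, 6 of the 12 libraries of the series, over the 12868 of 56748 genes in the deposited table that had a mean of at least 1 FPKM (fragments per kilobase of gene model, scaled to the library's total) across the 12 libraries. The mice were males aged 8 to 12 weeks. In the cKO mice Krt20 was deleted in proximal tubular cells, and both sham groups had the operation under pentobarbital without clamping of the renal pedicles. The other 6 libraries came from WT and cKO mice whose 2 pedicles were clamped for 30 min and whose kidneys were taken 24 h later (ischemia/reperfusion, IR). They served here to estimate the spread and to show the same genes after injury. The Cre driver, the floxed allele and the parentage of the WT mice are not named by the labels. Whether the libraries stem from separate animals is not labelled, and the p-values measure only how much these libraries vary, which may be technical.

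Interferons are cytokines that signal through JAK kinases and STAT transcription factors. Interferon gamma acts mainly on the GAS element of promoters, and type I interferons act through a complex with STAT2 and IRF9 on the ISRE element. Their targets include large GTPases that attack vacuoles of intracellular pathogens, antiviral sensors and effectors, and the machinery that cuts peptides and presents them on MHC molecules. Kidney tubular cells can express all of these. Krt20 encodes a type I keratin of intermediate filaments, which injured tubules are known to switch on.

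Krt20 (ENSMUSG00000035775, chromosome 11, 99319229 to 99328976, minus strand, as deposited) was hardly present without injury in either genotype. It had 1, 0 and 4 reads in the WT sham libraries and 1, 0 and 0 reads in the cKO sham libraries. The mean was 0.0650 ± 0.0816 FPKM for WT sham against 0.0114 ± 0.0198 for cKO sham (SD, n = 3; exact permutation test, two-sided, p = 0.4). A library without a read allows up to 0.103 to 0.117 FPKM for this gene (3 reads; counting error only), so a loss of Krt20 was not detectable at this depth and the genotype labels could not be checked on sham kidneys. In IR kidneys it was 83.95, 64.87 and 59.88 FPKM for WT against 28.22, 35.58 and 47.01 for cKO, so every cKO library was below every WT library. The log2 difference of −0.91 in IR did not pass (limma, adjusted p = 0.132). Prdx2, the peroxiredoxin in the title of the series, was 45.2, 50.1 and 47.9 FPKM for WT sham against 44.25, 42.7 and 44.15 for cKO sham. These groups did not overlap, but the log2 difference of −0.12 did not pass (limma, adjusted p = 0.688; exact permutation p = 0.1, the smallest that 3 against 3 allows).

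The 6 sham libraries held 13820915 to 15335403 reads. The share of reads from mitochondrial genes was 9.82% to 10.4% for WT sham against 8.11% to 8.47% for cKO sham. Scaling without mitochondrial genes kept 131 of the 142 calls described below. Any other part of this difference in the results was not tested. The replicate WT sham 1 stood apart in its interferon genes. Of 49 tested members of a list of type I interferon response genes, 45 were highest there among the 3 WT sham libraries (26.9% of all tested genes were), by a median of 1.28 on the log2 scale over the mean of WT sham 2 and 3. The number of calls in each interferon and MHC list is therefore also given without it. Genes that mark proximal tubule were abundant in every sham library, whereas the 9 retina genes, listed because the extraction text of the labels names that tissue, reached group means of at most 0.127 FPKM.

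Without injury, 142 of the 12868 genes (1.10%) differed between the genotypes (limma on log2(FPKM + 1), two-sided, Benjamini-Hochberg adjusted p under 0.05). Of these, 109 were higher in cKO sham (0.847% of the genes tested) and 33 were lower (0.256%), and 128 encode proteins. The difference reached 2-fold on this scale for 74 of the higher and 15 of the lower genes. The excess of higher genes depended on the libraries in the fit: with the 6 sham libraries alone 137 were higher and 114 lower. The scale understates the change of genes with low FPKM. Some called genes, among them Hrg, Ddx60 and Gm3650, averaged at least 1 FPKM only in the sham group where they were high. They passed the filter only through that group. The median log2 difference over all tested genes was 0.00 and its median size 0.102. FPKM is scaled to the library's total, so a median near 0 cannot show that the bulk of the genes did not shift. Before adjustment, 1472 of the 12868 genes had p under 0.05 (limma). In RNA from whole kidney, more cells of a type and more RNA per cell cannot be told apart.

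**Figure D1:**
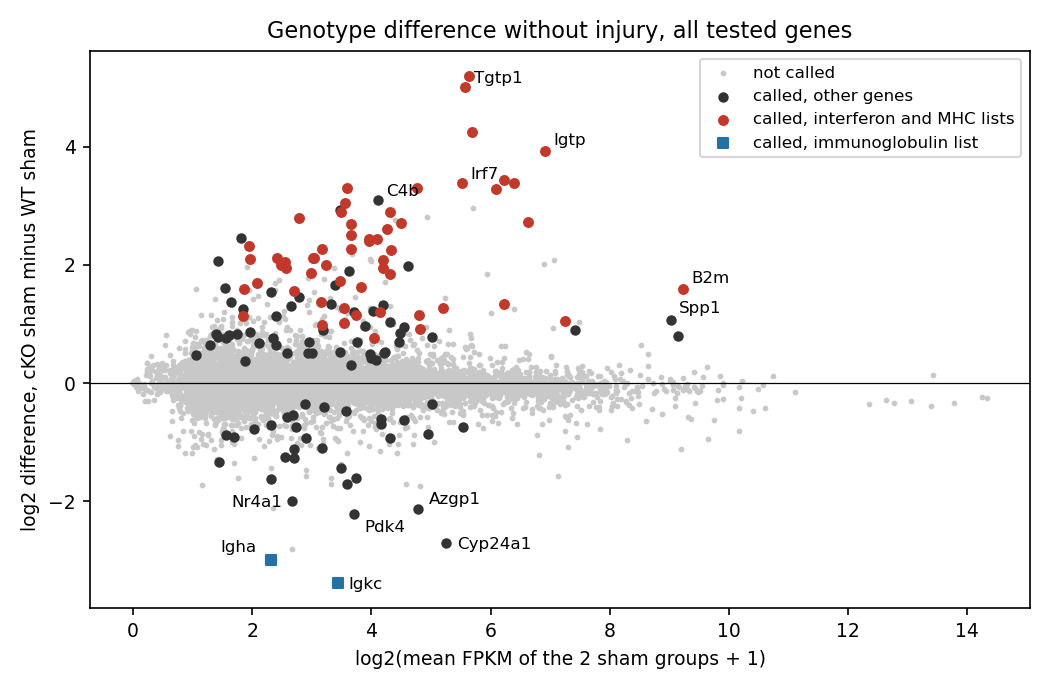
Log2 difference between cKO sham and WT sham (vertical axis) against the log2 of the mean FPKM of the 2 sham groups plus 1 (horizontal axis), with 1 point per tested gene. Called genes of the interferon and MHC lists (red) all lie above 0 and reach 5.20, the 2 called immunoglobulin genes (blue) lie at −3.0 and −3.38, and most genes (grey) lie near 0.

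Interferon and MHC genes made up 57 of the 109 higher genes. Lists of interferon-inducible GTPases, interferon gamma pathway, type I interferon response, and MHC class I and class II presentation had 121 tested members between them. Of these, 57 were called higher and 0 were called lower. A further 44 higher genes were in none of the 44 lists examined. Some of those are also known interferon targets, among them Il18bp and Trim21. The number of calls varied with the libraries used. With only the 6 sham libraries in the fit, 112 of the 142 genes were still called. Among genes described below, Irf7, Ifit3, Ifit1, Bst2, Oasl1, Ifih1, Samhd1, Herc6, Gbp3, Psme2, H2-Q4, Ccnd1, Glul, Cry1, Dusp6 and Igfbp1 were not. When each of the 12 libraries was left out in turn, 52 of the 142 genes were called every time, 41 higher and 11 lower. Where a named gene was not among these, its highest adjusted p over the leave-outs is given below as the leave-out adjusted p, with each library whose omission ended the call.

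The GAS (TTCNNNGAA) and ISRE (GAAA, then any 2 bases, then GAAA) letters were searched in RefSeq promoter windows (GRCm38.p6, 250 bases before to 50 bases after each start, both strands). An entry was found for 77 of the 109 higher genes. GAS letters were in 18 of these (23.4%) and ISRE letters in 34 (44.2%), against 9.55% and 3.99% of the 27025 genes with a window. Among the 9295 tested genes with a window the shares were 7.96% and 3.68%. Both were in 12 higher genes (15.6%, against 0.54% of all and 0.452% of the tested genes with a window). Among 23 lower genes with an entry, 3 held GAS letters (13%) and 0 held ISRE letters. Among the tested GTPase genes, 7 of 12 with an entry held both. The stretches below, from genes described next, are shown because 4 GTPase genes of chromosome 11 hold the pair in the same order, 2 bases apart. Capitals mark the matching letters, which overlap in Bst2, Irgm1 and Gbp3.
Igtp (chr11:58199499-58199543, plus strand): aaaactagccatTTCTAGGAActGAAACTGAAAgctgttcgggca
Irgm2 (chr11:58214890-58214934, plus strand): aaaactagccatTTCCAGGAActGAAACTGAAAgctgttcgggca
Tgtp1 (chr11:48992302-48992346, minus strand): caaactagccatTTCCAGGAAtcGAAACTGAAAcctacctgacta
Tgtp2 (chr11:49064261-49064305, minus strand): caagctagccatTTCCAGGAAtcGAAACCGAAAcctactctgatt
Gbp7 (chr3:142530218-142530304, plus strand): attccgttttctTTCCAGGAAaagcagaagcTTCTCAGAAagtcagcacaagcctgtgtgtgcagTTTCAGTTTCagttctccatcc
Irgm1 (chr11:48871423-48871462, minus strand): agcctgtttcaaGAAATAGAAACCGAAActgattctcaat
Gbp3 (chr3:142559987-142560026, plus strand): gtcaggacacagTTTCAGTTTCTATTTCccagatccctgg
Irf1 (chr11:53769912-53769944, plus strand): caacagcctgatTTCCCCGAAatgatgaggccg
Bst2 (chr8:71537575-71537620, minus strand): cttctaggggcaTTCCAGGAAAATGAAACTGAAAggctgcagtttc
Ifit1 (chr19:34640773-34640825, plus strand): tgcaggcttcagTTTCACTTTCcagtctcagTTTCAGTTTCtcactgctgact

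The interferon-inducible GTPases rose almost as a whole family. Of 28 listed members, 21 passed the expression filter, 20 of them were called higher, and the groups did not overlap for any of the 21 (all tested genes: 13.0% not overlapping and higher, 12.0% not overlapping and lower). The median log2 difference was 2.80. The filter averaged all 12 libraries. Gm4841, Gm5431, F830016B08Rik and Gbp10 had means below 1 FPKM in every group but cKO sham, so they passed only through that group. Such members inflate the counts among the 21. Over all 28 listed members, cKO values lay above all WT values for 26 and below for 0. The 7 members below the filter had means of up to 0.733 FPKM for WT sham against 1.61 for cKO sham. Summed over the family, the level was 51.2 to 149 FPKM for WT sham against 912 to 1243 for cKO sham.

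Tgtp1 (ENSMUSG00000078922, chromosome 11, 48876154 to 48884999, minus strand, as deposited), a T-cell-specific GTPase of the immunity-related GTPase family, was 3.81, 1.45 and 0.894 FPKM in WT sham 1, 2 and 3. It was 83.2, 116 and 73.7 FPKM in cKO sham 1, 2 and 3. Every cKO sham library was thus far above every WT sham library (log2 difference 5.01, SE 0.37, adjusted p = 0.000208). Its near copy Tgtp2 was 3.02, 1.23 and 0.770 FPKM against 18.8, 22.5 and 18.5 FPKM (3.05), and reads of such close paralogs may be split between them. Igtp (Irgm3), which guards the cell's own membranes against this family, was 22.5, 11.3 and 9.92 FPKM against 196, 274 and 202 FPKM (3.92, SE 0.31). Irgm1 and Irgm2, regulators of the same kind, rose from 12.8 ± 7.87 to 122 ± 14.2 FPKM and from 12.5 ± 6.53 to 136 ± 14.1 FPKM (SD, n = 3). Iigp1, an effector that coats the vacuole, was 2.71 to 7.72 FPKM for WT sham against 77.0 to 130 for cKO sham. BC023105, a processed pseudogene listed with this family, had the highest ratio of its tested members, 55.6, from 0.744 to 2.86 FPKM to 76.7 to 122 FPKM. BC023105 and Iigp1 both lie on chromosome 18 and had similar values in cKO sham. Whether they share reads was not tested, so both values are uncertain. Ifi47, Gm12250 (Irgb10), Gm5431, Gm4841, Gm4951 (leave-out adjusted p = 0.0633, lost without WT sham 2 or 3 or cKO sham 2 or 3) and F830016B08Rik completed the called genes of the group. Gm12250 is also labelled a processed pseudogene.

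The guanylate-binding proteins rose too, in lower amounts. Gbp6 was 0.732 to 2.30 FPKM for WT sham against 16.5 to 28.2 for cKO sham (log2 difference 3.30), and Gbp10 was 0.253 to 1.53 against 9.23 to 14.5 FPKM (2.80). Gbp7 was 7.26, 3.49 and 2.89 FPKM against 26.7, 30.0 and 25.6 FPKM (2.44), Gbp4 rose by 2.27 and Gbp5 by 1.69. Gbp3 (2.72, leave-out adjusted p = 0.0654, lost without WT sham 2 or cKO sham 2 or 3) and Gbp2 (2.25, leave-out adjusted p = 0.0765, lost without WT sham 2 or 3 or cKO sham 2 or 3) were called in the full set. Gbp9, at 2.81 to 7.99 against 11.6 to 14.9 FPKM, was the tested member not called (log2 difference 1.44, adjusted p = 0.122). In 19 of the 21 members cKO sham 2 was the highest cKO library, and in 20 of them WT sham 1 was the highest WT library. The family had 21 members called without WT sham 1, and 17 without WT sham 2, without cKO sham 2 or without cKO sham 3.

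**Figure D2:**
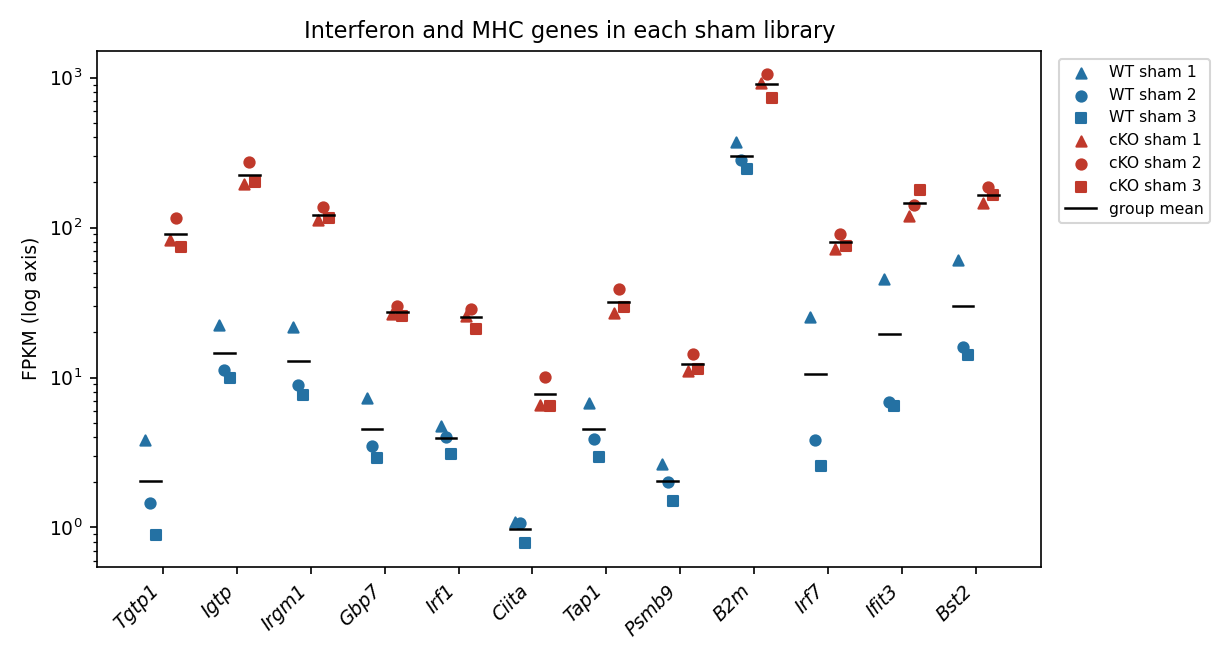
FPKM on a log axis of 12 interferon and MHC genes in each of the 6 sham libraries (blue WT, red cKO, shapes for replicates, black bars for means). The cKO libraries lie above the WT libraries for every gene shown, and WT sham 1 (blue triangle) lies far above WT sham 2 and 3 for Irf7, Ifit3 and Bst2.

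Transcription factors of the pathway rose, while receptors and kinases showed no called difference. In the interferon gamma list 6 of 16 tested members were called higher and 0 lower, with a median of 0.645. Without WT sham 1, 7 were called higher. Irf1, an early interferon gamma target and itself an activator, was 4.75, 4.02 and 3.09 FPKM in the WT sham libraries against 25.7, 28.9 and 21 FPKM (2.40, SE 0.20). Ciita, the master regulator of MHC class II, was 0.783 to 1.08 FPKM against 6.50 to 10.1 FPKM (2.12). Cd274 (PD-L1), a checkpoint ligand, was 1.2 to 3.82 against 11.4 to 13.8 FPKM (2.12). The tryptophan-tRNA ligase gene Wars rose by 0.76, and the chemokine gene Cxcl10 by 2.51 (leave-out adjusted p = 0.0977, lost without WT sham 2 or 3 or cKO sham 2 or 3).

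The receptor subunits Ifngr1 and Ifngr2 had log2 differences of 0.00 and −0.08, and the kinases Jak1 and Jak2 of 0.12 and 0.11, none of them called. Irf9, at 8.95, 3.97 and 3.59 against 13.8, 13.7 and 14.2 FPKM, did not pass (1.29, adjusted p = 0.0659). Ifng itself, the cytokine, had 0 FPKM in 5 of the 6 sham libraries and 0.0530 FPKM in cKO sham 3. The feedback inhibitor Socs1 was 0.0519 to 0.407 FPKM for WT sham against 0.409 to 1.21 for cKO sham, below the filter. Cxcl9, another chemokine gene of this pathway, was 0.600 to 1.08 FPKM against 0.679 to 1.35 FPKM, so these groups overlapped where those of Cxcl10 did not. Among genes on no list, Stat3, the signal transducer of interleukin 6 family cytokines, was 9.21 to 9.36 FPKM for WT sham against 14.5 to 17.6 for cKO sham (0.69, leave-out adjusted p = 0.0604, lost without WT sham 2 or 3 or cKO sham 2).

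The type I interferon response had fewer calls, and their number varied with the libraries used. Of 49 tested members 14 were called higher and 0 lower, with a median log2 difference of 1.37. With only the 6 sham libraries in the fit 6 were called, and 41 when WT sham 1 was also left out. Irf7, which amplifies type I interferon production, was at 25.2, 3.85 and 2.56 FPKM in WT sham 1, 2 and 3 against 71.8, 91.1 and 75.9 FPKM for cKO sham (3.39, SE 0.63, adjusted p = 0.0309, leave-out adjusted p = 0.149, lost without WT sham 2 or 3, any cKO sham or cKO IR 1 or 2). Ifit3, which binds viral RNA complexes, was 45.2, 6.90 and 6.44 FPKM against 120, 141 and 178 FPKM (3.38, adjusted p = 0.0419, leave-out adjusted p = 0.181, lost without WT sham 2 or 3, any cKO sham, WT IR 3 or cKO IR 1 or 2). Ifit1, its partner, was 12.8, 1.85 and 1.70 FPKM against 38.7, 42.8 and 58.4 FPKM (3.31, leave-out adjusted p = 0.144, lost without WT sham 2 or 3, any cKO sham or cKO IR 2). The WT sham 1 values thus stood between the other WT libraries and the cKO libraries.

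Bst2 (tetherin), which holds budding virus at the membrane, was 60.5, 15.9 and 14.2 FPKM against 145, 186 and 165 FPKM (2.72, leave-out adjusted p = 0.0714, lost without WT sham 2 or 3 or cKO sham 2 or 3). The RNA sensors Ddx58 (RIG-I) and Ifih1 (MDA5) rose by 1.62 and 1.37 (leave-out adjusted p = 0.0916 and 0.131, both lost without WT sham 2 or 3 or cKO sham 2 or 3, and Ifih1 also without cKO sham 1 or cKO IR 1). Parp14 rose by 2.44 and Dtx3l by 1.72, and both kept their calls in every leave-out. Parp9, Stat2, Oasl1, Xaf1, Samhd1 and Herc6 completed the 14, with leave-out adjusted p of 0.0529, 0.0603, 0.0861, 0.106, 0.135 and 0.192. All 6 were lost without WT sham 2 or cKO sham 2. Stat2 was also lost without cKO sham 3, Oasl1 without WT sham 3 or cKO sham 3, and Xaf1 and Samhd1 without WT sham 3, cKO sham 1 or cKO sham 3. Herc6 was kept only without WT sham 1 or WT IR 2. Isg15, an antiviral ubiquitin-like modifier, and Oasl2 were among the 35 not called (log2 differences 2.81 and 2.18, adjusted p = 0.0603 and 0.0641). Without WT sham 1 the list had 35 members called higher. Without WT sham 2 or cKO sham 2 it had 2, without cKO sham 3 it had 3, without WT sham 3 it had 4, and without cKO sham 1 it had 7. Among the 39 members whose cKO mean was at least 2-fold above WT sham 2 and 3, WT sham 1 had gone a median of 66.2% of that distance on the log2 scale, against 30.7% for the 21 GTPases. In 35 of the 49 members cKO sham 3 was the highest cKO library, where for the GTPases it was cKO sham 2.

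MHC class I genes rose among peptide cutting, transport and presenting proteins, and no general chaperone of the list was called. Of 24 tested members 15 were called higher and 0 lower, with a median of 1.10. Nlrc5, the transactivator of class I genes, was 2.66, 1.35 and 0.577 FPKM against 6.91, 10.1 and 7.90 FPKM (1.95). The immunoproteasome subunits Psmb9, Psmb8 and Psmb10 rose from 2.05 ± 0.564 to 12.2 ± 1.85 FPKM, from 2.80 ± 0.951 to 14 ± 2.73 FPKM and from 7.58 ± 0.739 to 30.2 ± 5.47 FPKM (SD, n = 3). Their activator subunits Psme1 and Psme2 rose by 0.91 and 1.21, the latter with a leave-out adjusted p of 0.171, lost without WT sham 2 or 3, any cKO sham, WT IR 1 or cKO IR 1 or 2. Tap1, a subunit of the transporter that carries peptides into the endoplasmic reticulum, was 6.76, 3.88 and 2.96 FPKM against 26.7, 38.8 and 29.7 FPKM (2.61, SE 0.25, adjusted p = 0.000628). Its partner Tap2 rose by 1.28 (leave-out adjusted p = 0.0993, lost without WT sham 2 or 3 or cKO sham 2 or 3), the loading factors Tapbp and Tapbpl by 1.27 and 1.15, and the trimming peptidase Erap1 by 1.02.

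B2m, the light chain shared by all class I molecules, was among the most abundant of the called genes. It was 372, 282 and 245 FPKM for WT sham against 927, 1055 and 729 for cKO sham, a ratio of 3.02 (log2 difference 1.59, SE 0.18, adjusted p = 0.00195). The class I heavy chain H2-D1 was 84.8 to 116 against 165 to 252 FPKM (1.05, leave-out adjusted p = 0.0852, lost without WT sham 2 or 3 or cKO sham 2 or 3), H2-T23 rose by 1.33 and H2-Q4 by 1.16 (leave-out adjusted p = 0.185, lost without WT sham 2 or 3, any cKO sham, WT IR 3 or any cKO IR). Heavy chains are near copies of each other, so their split is uncertain. The general chaperones of the same pathway, Calr, Canx and Pdia3, had log2 differences of 0.12, 0.02 and 0.04. Without WT sham 2, WT sham 3, cKO sham 2 or cKO sham 3 the list had 11 calls, and without WT sham 1 it had 15.

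MHC class II genes, which Ciita controls, showed fewer calls. Of 11 tested members 2 were called higher and 0 lower, and the median was 0.636. H2-DMa and H2-DMb2, parts of the peptide exchange factor, were 1.91 to 2.79 against 7.42 to 11.0 FPKM (1.57, leave-out adjusted p = 0.0816, lost without any WT sham or cKO sham 2 or 3) and 1.08 to 1.27 against 5.62 to 11.8 FPKM (1.99, leave-out adjusted p = 0.0678, lost without WT sham 2 or 3 or cKO sham 2). Without WT sham 2, WT sham 3 or cKO sham 2 neither was called, and without WT sham 1 the list had 1 call. Cd74, the invariant chain, was 127, 120 and 102 FPKM against 222, 289 and 212 FPKM, and H2-Ab1 was 40.2, 41.2 and 31.2 against 63.9, 118 and 83.4 FPKM. Their groups did not overlap, but neither passed (adjusted p = 0.146 and 0.0974). H2-Oa and H2-Ob, which restrain peptide exchange mainly in B cells, had the opposite order at levels below the filter: 0.394 to 0.536 against 0.146 to 0.342 FPKM, and 0.358 to 0.502 against 0.0737 to 0.281 FPKM.

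Markers of immune cells were not called beside these genes. The macrophage and dendritic cell list had 0 of 11 tested members called, and its summed level was 54.2 to 76.6 FPKM for WT sham against 56.0 to 83.7 for cKO sham. The median log2 difference was 0.238, and 8 of the 11 lay above 0. Fcgr1, an Fc receptor gene, had the smallest p of the list (0.70, adjusted p = 0.402). Lyz2, a lysozyme of myeloid cells, went the other way, at 10.5 to 14.3 against 5.42 to 8.86 FPKM (adjusted p = 0.56). The T and NK cell list had 0 of 16 members above the filter, with sums of 7.96 to 10.7 FPKM for WT sham against 4.09 to 6.53 for cKO sham. For 5 of its members the cKO values lay below all WT values, as for Lck at 0.803 to 0.876 against 0.293 to 0.492 FPKM, and for 1 they lay above. Of the genes below the filter with a read in a sham library, 6.38% lay lower in this way and 3.42% higher. The neutrophil list had 0 of 5 called.

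Complement and inflammatory genes rose in a few members. C4b, a component of the classical pathway on chromosome 17, was 4.20, 1.46 and 2.45 FPKM against 35.1, 32.5 and 21.9 FPKM (log2 difference 3.10, SE 0.58, adjusted p = 0.0312, leave-out adjusted p = 0.149, lost without WT sham 2 or 3, any cKO sham or cKO IR 1). C3, on which all complement pathways meet, was 3.47 to 4.47 against 11.8 to 20.8 FPKM (1.66, leave-out adjusted p = 0.175, lost without any 1 sham library or any cKO IR). They were the 2 called of 13 tested complement genes, and neither was called without WT sham 2, without WT sham 3 or without any 1 cKO sham library. C1ra (1.09) and C2 (0.64) did not pass (adjusted p = 0.0603 and 0.112). Of 13 tested chemokine list members 1 was called, the scavenging receptor Ackr3 (0.97, leave-out adjusted p = 0.0604, lost without cKO sham 2 or 3). Ccl12, a chemokine for monocytes outside the list, was 0.129 to 0.965 against 2.83 to 4.22 FPKM (1.61, leave-out adjusted p = 0.0761, lost without WT sham 2 or 3 or cKO sham 2 or 3). Il18bp, which neutralises interleukin 18, was 1.05 to 2.08 against 5.68 to 7.5 FPKM (1.54) and was called in every leave-out.

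Few tubular injury markers were called. Of 21 tested, 2 were called higher and 0 lower, with a median of 0.08. Fgg, the fibrinogen gamma chain that injured tubules produce, was 3.36, 4.37 and 4.36 FPKM against 10.1, 22.4 and 23.7 FPKM (1.89, leave-out adjusted p = 0.0734, lost without WT sham 2 or 3 or cKO sham 2 or 3). Spp1 (osteopontin) was 319, 335 and 350 FPKM against 661, 752 and 706 FPKM (1.07, leave-out adjusted p = 0.109, lost without any 1 sham library). Neither was called without WT sham 2, WT sham 3, cKO sham 2 or cKO sham 3. Lcn2, a neutrophil gelatinase-associated lipocalin used as an injury marker, was 0.259 to 0.536 against 0.252 to 0.575 FPKM, so the groups overlapped. The keratin and intermediate filament list had 0 of 14 called, and Krt18 was 4.04 to 4.91 against 4.92 to 5.94 FPKM (adjusted p = 0.65).

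Of the proliferation genes few were called. The cell cycle list had 1 of 12 tested members called, Ccnd1 (cyclin D1), at 24.1, 19 and 25.8 FPKM against 44.2, 34.3 and 40.8 FPKM (0.77, leave-out adjusted p = 0.113, lost without WT sham 1 or 2 or cKO sham 1 or 3). The median was 0.38. Counting the 8 members below the filter, cKO values lay above all WT values for 12 of 20 and below for 0. Among the tested members these counts were 7 and 0. Of all tested genes 13.0% lay higher in this way and 12.0% lower. Of the genes below the filter with a read in a sham library, 3.42% lay higher and 6.38% lower. Top2a, an enzyme of DNA replication and mitosis, was 0.461 to 0.690 against 1.32 to 1.76 FPKM (0.68, adjusted p = 0.194), and Mki67 was 0.427 to 0.861 against 1.21 to 2.07 FPKM (0.66, adjusted p = 0.28). Of 20 tested cell death genes 1 was called, Bak1, a pore-forming effector of apoptosis, at 4.67 to 5.08 against 7.14 to 9.83 FPKM (0.69, leave-out adjusted p = 0.0616, lost without WT sham 2 or 3 or cKO sham 2 or 3). Glul (glutamine synthetase) was 95.9 to 149 against 189 to 265 FPKM (0.89, leave-out adjusted p = 0.171, lost without WT sham 1 or 2, any cKO sham, WT IR 1 or any cKO IR), and Ly6a (Sca-1), also an interferon target, was 377 to 478 against 656 to 793 FPKM (0.80, leave-out adjusted p = 0.0838, lost without WT sham 2 or 3 or cKO sham 1 or 2).

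**Figure D3:**
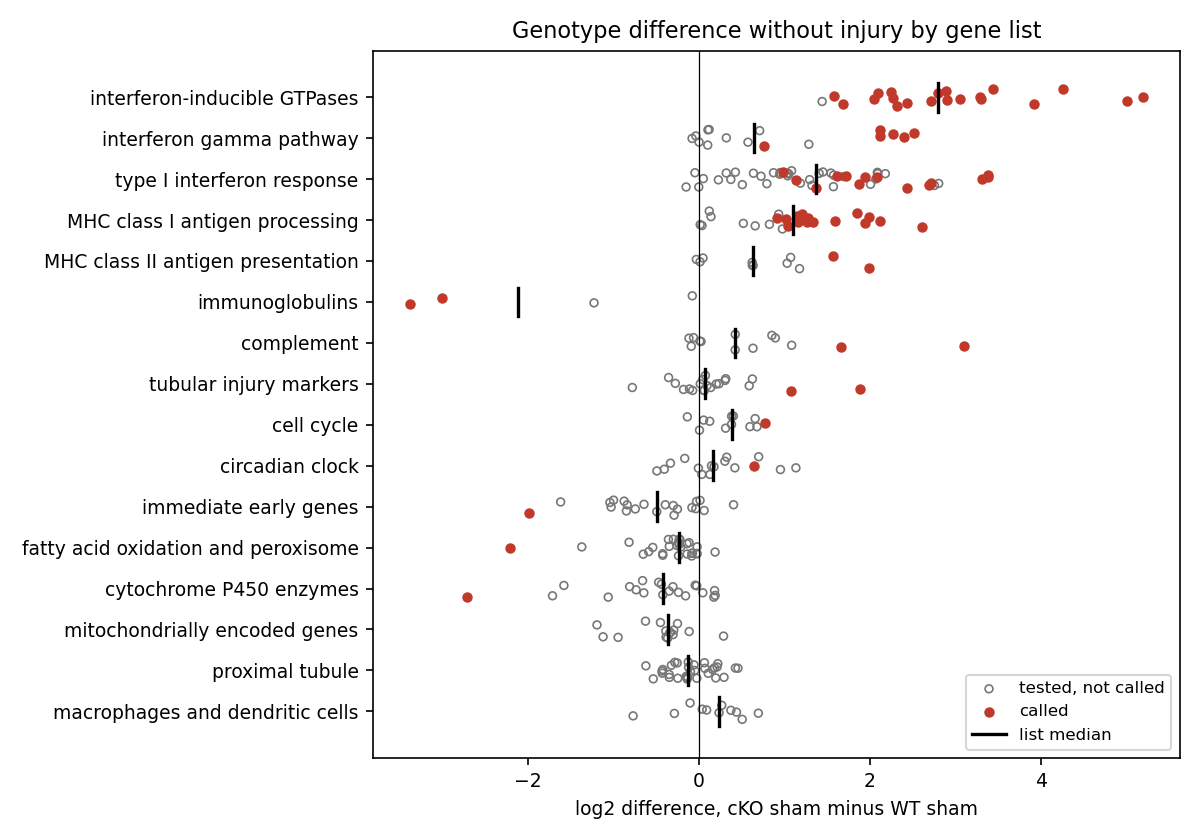
Log2 difference between cKO sham and WT sham (horizontal axis) of every tested member of 16 gene lists (filled red where called, open grey where not, black bar for the median; vertical scatter only separates points). The 5 interferon and MHC lists have medians from 0.636 to 2.80, while the medians of the metabolic lists and of the immediate early genes lie below 0.

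The largest decreases were in immunoglobulin genes. Igkc, the kappa light chain, was 19.3, 24.6 and 12.5 FPKM for WT sham against 0.621, 0.259 and 2.06 for cKO sham (log2 difference −3.38, SE 0.37, adjusted p = 0.00151). Igha, the IgA heavy chain, was 7.80, 9.24 and 6.39 FPKM against 0, 0.0774 and 0.206 FPKM (−3.0, SE 0.23, adjusted p = 0.000208). Both were called in every leave-out. They were 2 of 4 tested members of the immunoglobulin list, and the IgM chain Ighm, at 2.90 to 4.44 against 3.14 to 3.86 FPKM, overlapped between genotypes (adjusted p = 0.935). Pigr, which carries IgA across epithelia, was 110, 216 and 141 FPKM against 85.0, 69.7 and 43.1 FPKM and did not pass (−1.22, adjusted p = 0.355).

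With members below the filter, the cKO values lay below all WT values for 9 of 14 immunoglobulin list genes and above for 0. Jchain, which joins IgA and IgM units, was 1.91 to 2.10 against 0.109 to 0.327 FPKM, and Ighg2b was 0.221 to 0.563 FPKM in WT sham and 0 in the 3 cKO sham libraries. Of 12 B and plasma cell markers only Sdc1, which tubules also express, passed the filter (log2 difference 0.14, adjusted p = 0.928). For 6 of the 12 the cKO values lay below all WT values and for 0 above. Of the 16454 genes below the filter with a read in a sham library, 6.38% lay lower in this way and 3.42% higher. An example was the B-cell factor Pax5, at 0.0426 to 0.192 against 0.00775 to 0.0233 FPKM. The plasma cell gene Mzb1 was 0.372 to 0.792 against 0.790 to 1.69 FPKM, with overlapping groups. The part of B and plasma cell number in these values was not tested.

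Lower genes of energy and insulin signalling are described together here, grouped after their values were seen. Pdk4, a kinase that shuts pyruvate out of oxidation, was 24.0, 20.2 and 17.6 FPKM against 4.23, 3.45 and 3.24 FPKM (−2.21, SE 0.33, adjusted p = 0.00883, leave-out adjusted p = 0.0536, lost without WT sham 2 or cKO sham 2). Irs2, an insulin receptor substrate, was 18.1, 20.8 and 18.5 FPKM against 6.28, 6.40 and 4.35 FPKM (−1.60, SE 0.17, adjusted p = 0.00115). Igfbp1, a binding protein of insulin-like growth factors, was 13.9, 20.1 and 17.6 FPKM against 8.06, 3.25 and 3.42 FPKM (−1.70, leave-out adjusted p = 0.0963, lost without WT sham 2 or 3 or cKO sham 2 or 3). Depp1, a FOXO target, was 6.54, 7.95 and 4.83 FPKM against 2.48, 1.27 and 0.707 FPKM (−1.62, leave-out adjusted p = 0.149, lost without any WT sham, cKO sham 2 or 3 or cKO IR 2). Irs2 kept its call in every leave-out. Txnip, a glucose-responsive inhibitor of thioredoxin, was 133 to 152 against 62.3 to 95.4 FPKM and did not pass (−0.89, adjusted p = 0.0927).

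The vitamin D gene Cyp24a1 also fell. This enzyme that inactivates vitamin D was 85.5, 48.5 and 62.1 FPKM against 10.8, 11.0 and 5.90 FPKM (log2 difference −2.71, SE 0.51, adjusted p = 0.0313). Its leave-out adjusted p was 0.141 (lost without any 1 sham library or cKO IR 2). The receptor Vdr, at 61.8, 76.3 and 63.8 against 40.6, 40.3 and 42.3 FPKM, and the activating enzyme Cyp27b1, at 5.0 to 7.77 against 2.83 to 4.26 FPKM, did not overlap and did not pass (adjusted p = 0.0741 and 0.66). Of 21 tested cytochrome P450 genes Cyp24a1 was the 1 called, and the median was −0.42. In this list 11 had cKO values below all WT values and 0 had them above (all tested genes: 12.0% and 13.0%). Cyp2a4, a steroid hydroxylase, was 184 to 229 against 48.7 to 94.6 FPKM (−1.58, adjusted p = 0.122).

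Genes of growth factor and early response signalling were also among the lower genes. Nr4a1, an immediate early nuclear receptor, was 5.02, 12.2 and 10.3 FPKM against 2.09, 1.47 and 0.880 FPKM (−1.99, SE 0.28, adjusted p = 0.00587). It was the 1 called of 21 immediate early genes, whose median was −0.49, with 10 below all WT values and 1 above (all tested genes: 12.0% and 13.0%). Egr1, at 7.73, 28.4 and 7.43 against 4.49, 3.50 and 2.05 FPKM, and Jun, at 19.6 to 36.6 against 11.2 to 16.1 FPKM, did not pass (adjusted p = 0.205 and 0.158). Both were highest in WT sham 2. Csrnp1, an early response nuclear protein, was 5.80 to 10.1 against 2.29 to 3.31 FPKM (−1.26, leave-out adjusted p = 0.0678, lost without WT sham 2 or 3 or cKO sham 2 or 3). Etv5 and Dusp6, targets of the ERK pathway, were 8.38 to 9.54 against 3.86 to 4.59 FPKM (−0.94) and 18.8 to 24.2 against 10.6 to 13.9 FPKM (−0.69, leave-out adjusted p = 0.0852, lost without WT sham 2 or 3 or cKO sham 2 or 3). Erbb3, a receptor for neuregulins, was 26.6 to 28.7 against 16.6 to 18.3 FPKM (−0.63). Nr4a1, Etv5 and Erbb3 were called in every leave-out.

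Among secreted and transport genes, Azgp1 (zinc-alpha-2-glycoprotein) was 48.2, 39.7 and 43.4 FPKM against 9.15, 7.99 and 10.7 FPKM (−2.12, leave-out adjusted p = 0.109, lost without any 1 sham library). Hrg (histidine-rich glycoprotein) was 2.35 to 3.71 against 0.265 to 0.757 FPKM (−1.34). Its mean was below 1 FPKM in every group but WT sham, so it passed the filter only through that group. Anxa13, an annexin of apical membranes, was 5.91 to 8.42 against 2.22 to 2.60 FPKM (−1.25), and Glt1d1 7.65 to 8.16 against 2.58 to 3.89 FPKM (−1.12). Slc25a30, a mitochondrial carrier, was 33.4 to 42.5 against 20.6 to 20.7 FPKM (−0.87). These last 4 were called in every leave-out. Egln3, an oxygen-sensing prolyl hydroxylase, was 10.1, 13.7 and 10.1 FPKM against 4.74, 3.95 and 5.49 FPKM (−1.10, leave-out adjusted p = 0.106, lost without WT sham 2 or 3 or any cKO sham) and was the 1 called of 21 glycolysis and hypoxia genes.

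**Figure D4:**
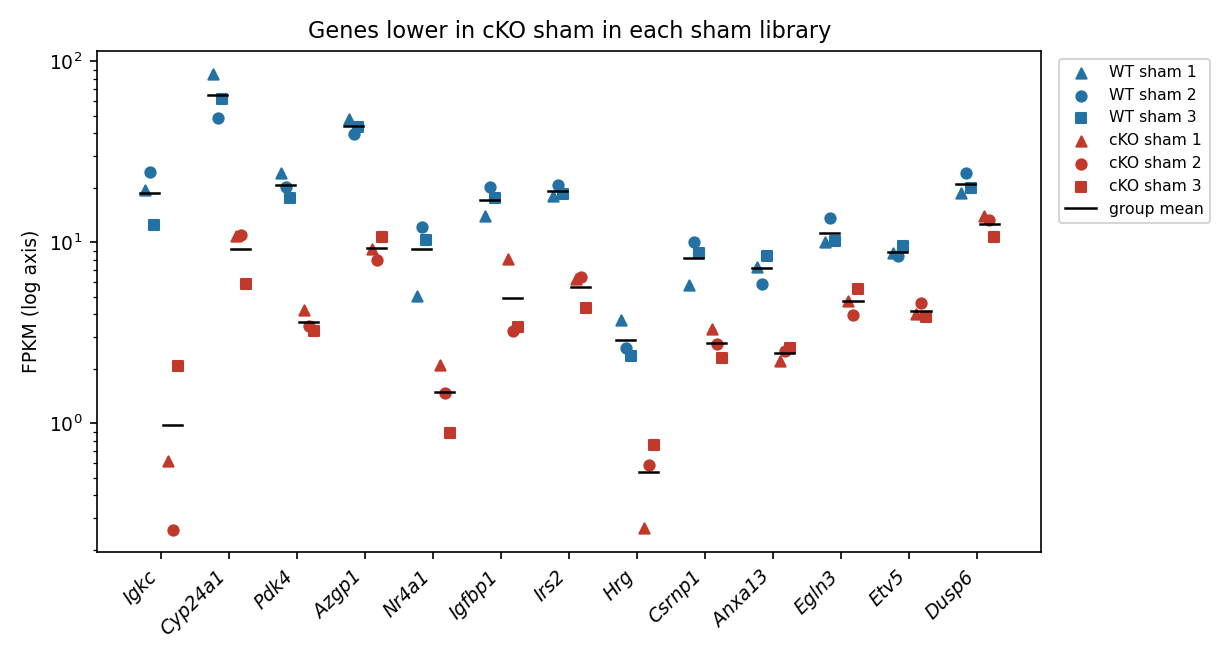
FPKM on a log axis of 13 genes called lower in cKO sham, in each of the 6 sham libraries (blue WT, red cKO, shapes for replicates, black bars for means). All WT points lie above all cKO points of the same gene, and the widest gap is that of Igkc.

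Few genes of energy metabolism were called. Pdk4 was the 1 called of 28 tested fatty acid oxidation and peroxisome genes, and the median was −0.23. In this list 18 had cKO values below all WT values while 0 had them above (all tested genes: 12.0% and 13.0%). Cpt1a, which admits fatty acids to mitochondria, was 99.4 to 114 against 76.4 to 80.6 FPKM (−0.42, adjusted p = 0.164). Of 15 mitochondrially encoded genes 0 were called, with a median of −0.36, 10 below all WT values and 1 above (all tested genes: 12.0% and 13.0%). Of 32 nuclear respiratory chain and citrate cycle genes 0 were called and the median was −0.09, with 10 below all WT values and 1 above (all tested genes: 12.0% and 13.0%). Clpx, a mitochondrial unfoldase, fell by 0.75 on the log2 scale (leave-out adjusted p = 0.162, lost without WT sham 1 or 2, any cKO sham, WT IR 1 or cKO IR 2).

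Genes that define the nephron segments did not pass in any list. The proximal tubule list, the segment in which Krt20 was deleted, had 0 of 32 called with a median of −0.12. The lists for thick ascending limb and distal convoluted tubule (14 tested), principal cells (10), intercalated cells (10), podocytes (7), endothelium (10) and stroma (10) had 0 called. Stroma had the largest median of these, 0.41, with Col1a1 at 5.40 to 6.53 against 8.57 to 14.8 FPKM (adjusted p = 0.758). Of the 10 stroma genes, 6 had cKO values above all WT values and 0 had them below (all tested genes: 13.0% and 12.0%). Peroxiredoxins and antioxidant enzymes (21), ferroptosis suppressors (19), ferroptosis drivers and markers (17) and exosome genes (22), the themes of the series title, also had 0 called, with medians of −0.11, −0.06, 0.07 and 0.04. Nqo1, an NRF2 target, was nearest to passing among them at 30.8 to 31.3 against 17.1 to 21.4 FPKM (−0.64, adjusted p = 0.0873). The heat shock (16), unfolded protein response (21), cholesterol synthesis (24) and ribosomal protein (30) lists had 0 called.

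Clock genes showed 1 call. Cry1, a repressor of the clock, was 0.850 to 0.953 against 1.46 to 2.51 FPKM (0.65, leave-out adjusted p = 0.175, lost without any WT sham, cKO sham 1 or 2, WT IR 1 or 3 or any cKO IR), 1 of 16 tested. Per2, another repressor, was 3.60 to 6.99 against 9.96 to 12.8 FPKM (1.14, adjusted p = 0.0949). Dbp, a clock output gene, was 12.6, 14.7 and 35.5 FPKM for WT sham against 35.3 to 40.2 for cKO sham, so WT sham 3 reached the cKO level. WT sham 3 was also the highest for the haemoglobin genes Hba-a1 and Hbb-bs, at 403 and 428 FPKM where the other 5 sham libraries had 77.6 to 141 and 98.2 to 154 FPKM. The labels name no time of day of collection, and its part in these values was not tested.

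The gene with the smallest p-value was a processed pseudogene. Itpa-ps1 (ENSMUSG00000081476, chromosome 2, 94214847 to 94215443, minus strand, as deposited) was 1.86, 1.62 and 1.26 FPKM for WT sham against 18.7, 19.5 and 17.8 for cKO sham (log2 difference 2.93, SE 0.15, adjusted p = 1.85e-05). Its parent Itpa, an enzyme that clears faulty nucleotides, went the other way, at 12.2, 13.3 and 13.1 against 8.82, 8.66 and 9.54 FPKM (−0.47, leave-out adjusted p = 0.0916, lost without WT sham 2 or 3 or cKO sham 1 or 2). Reads of a pseudogene and its parent may be assigned to either, so both values are uncertain. After IR, Itpa-ps1 was 1.70 to 2.66 FPKM for WT against 1.95 to 3.25 for cKO, so the cKO sham libraries stood apart from the cKO IR libraries of the same labelled genotype.

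The called genes were spread over the chromosomes. By chromosome the share called was highest on 17 (2.24%, 14 higher), which carries the MHC, on 18 (2.1%, 7 higher) and on 6 and 16 (1.69% each), and chromosome 11, with 17 higher and 1 lower, had 1.66%. Within 10 Mb of Krt20 on chromosome 11, 1 of 237 tested genes was called, Stat3 (0.422%).

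After injury none of these differences was called. In cKO IR against WT IR, which uses the other 6 libraries, 0 of the 12868 genes were called (limma; 1926 had an unadjusted p under 0.05, and limma voom on recovered reads called 1). Of the 109 genes higher in cKO sham, 88 had a log2 difference below 0 after IR, and of the 33 lower genes 23 had one above 0. The difference between the genotype effects in sham and in IR, tested as an interaction in the same fit, was called for 113 genes (0.878% of those tested), 88 of them among the 142, whose choice by the sham difference enters this test. All 21 tested GTPases had IR log2 differences below 0, with a median of −0.583. Igtp was 17.6, 14.9 and 9.26 FPKM for WT IR against 5.39, 7.73 and 4.77 for cKO IR (−1.08, adjusted p = 0.183; interaction −5.0, adjusted p = 0.000804). The 3 cKO sham libraries were above all 9 other libraries for 85 of the 109 higher genes (3.27% of all tested genes were) and below all 9 for 13 of the 33 lower genes (2.49%). The called genes already lay apart from the 3 WT sham libraries, and among all tested genes that did so the shares were 25.1% and 20.7%.

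Pdk4 crossed over, at 6.18, 6.16 and 15.3 FPKM for WT IR against 31.0, 25.1 and 53.1 for cKO IR (log2 difference 1.92, adjusted p = 0.132; interaction 4.13, adjusted p = 0.00336). Cyp24a1 was 20.2 to 51.8 FPKM for WT IR against 34.9 to 147 for cKO IR (1.17, adjusted p = 0.314; interaction 3.88, adjusted p = 0.0358). Igkc was 3.06 to 7.96 against 3.65 to 5.96 FPKM, with no order between the genotypes. Of the 109 genes higher in cKO sham, 28 had IR groups that did not overlap in the opposite direction, with cKO lower. Fgg, Spp1 and Stat3 were the 3 genes higher in cKO sham whose IR groups also did not overlap in the same direction. The shares of all tested genes for IR were not counted. Fgg was 167 to 274 against 285 to 458 FPKM (0.89), Spp1 had a difference of 0.61 and Stat3 of 0.36. None of these 3 passed after IR (adjusted p = 0.236, 0.201 and 0.189) and their interactions were not called.

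**Figure D5:**
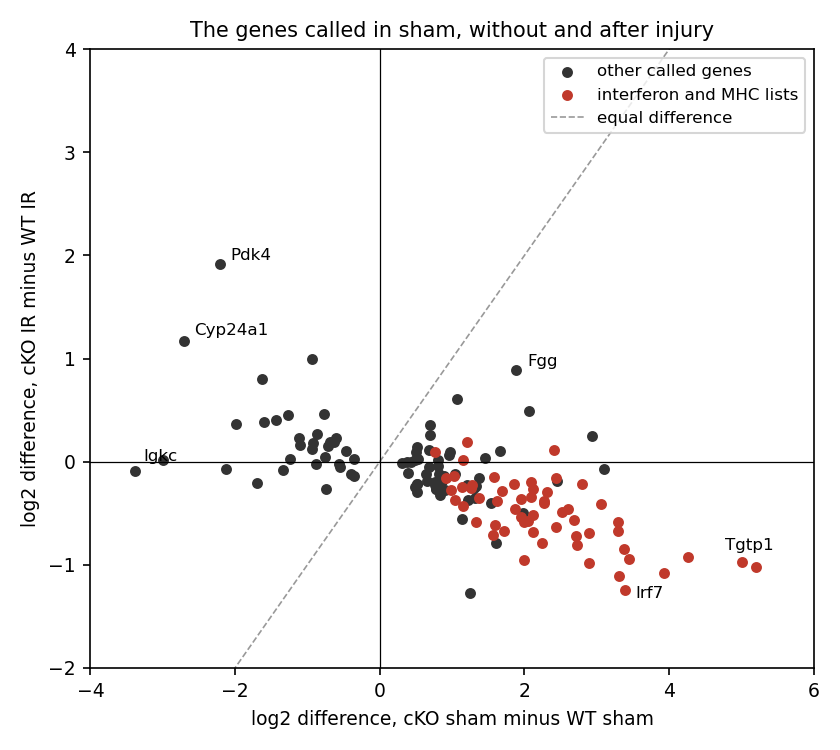
Log2 genotype difference after IR (vertical axis) against that in sham (horizontal axis) for the 142 genes called in sham (red for the interferon and MHC lists, black for the others; dashed line for equal differences). Most genes right of 0 lie below the horizontal line, down to −1.28, and Pdk4 and Cyp24a1 lie in the upper left at 1.92 and 1.17.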

How the data were processed

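The authors deposited 1 table of FPKM per gene and library, with gene lengths. Per the submitters' processing notes, HISAT2 2.2.1 and the builds mm8 and mm9 were named; no counter or annotation is named there. The table's coordinates carry no build name and are printed as deposited. FPKM times gene length came out as whole multiples of 1 step per library (largest distance from a whole number 1.28e-09), which gave the reads. Testing was limited to genes averaging 1 FPKM or more over 12 libraries, as log2(FPKM + 1) in limma 3.58.1 under R 4.3.3, with a variance trend and 1 mean per group over all 12 libraries, which share 1 estimate of the spread. Krt20 and Prdx2 were also compared by exact permutation. The test was checked on simulated counts whose spread followed the same rule in all 12 libraries. That check does not cover a library that stands apart, as WT sham 1 did, or groups of unlike spread. Members and gene lists were chosen with earlier results of these data known. Named are Krt20, Prdx2, the 15 called genes of largest difference in each direction (groups not overlapping, no clone names), all called members of the interferon, MHC and immunoglobulin lists, and up to 4 members of smallest p of each other list. Further genes, such as Stat3, Il18bp, Ccl12, Itpa, Calr, Lcn2, Isg15 and the unfiltered lymphocyte genes, were chosen after their values were seen. Alternatives were other pseudocounts, filters, scalings and samples, voom on recovered reads, a replicate block and leaving out each library. Promoter sequences are from RefSeq (GRCm38.p6). Some items are not reported here.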

Additional observations from a re-analysis of the deposited data

Results flagged for a closer look

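The genotype effect after IR differed from that in sham for 70 of the results given above (interaction in the same limma fit, adjusted p under 0.05). The values here are the log2 difference after IR minus that in sham. They were below 0 for 53 and above 0 for 17, and the 2 effects come from different libraries. The value contains the sham difference by which most of these genes were chosen, so its sign largely restates the direction in sham. Among the interferon-inducible GTPases the values were −6.22 for BC023105, −5.98 for Tgtp1, −5.18 for Iigp1, −5.0 for Igtp, −4.39 for Irgm2, −3.96 for Irgm1, −3.88 for Gbp6 and −3.88 for Ifi47. Further values of this group were −3.59 for Gm12250, −3.47 for Tgtp2, −3.43 for Gbp3, −3.04 for Gbp2, −3.01 for Gbp10, −2.65 for Gbp4, −2.63 for Gm4951 and −2.61 for Gm4841. Further values of this group were −2.59 for Gbp7, −2.30 for Gm5431, −1.98 for Gbp5 and −1.73 for F830016B08Rik. Genes of the interferon gamma pathway had −2.64 for Ciita, −2.38 for Cd274 and −2.29 for Irf1. Type I interferon response genes had −4.63 for Irf7, −4.42 for Ifit1, −3.53 for Bst2, −3.26 for Oasl1, −3.07 for Parp14, −2.49 for Parp9, −2.43 for Stat2 and −2.39 for Dtx3l. Further values of this group were −2.33 for Xaf1 and −2.0 for Ddx58. MHC class I processing genes had −3.06 for Tap1, −2.81 for Psmb9, −2.58 for Psmb8, −2.31 for Nlrc5, −2.21 for B2m, −2.07 for Psmb10, −1.92 for H2-T23 and −1.52 for Tapbp. Further values of this group were −1.41 for H2-D1, −1.16 for Erap1, −1.13 for Tapbpl and −1.06 for Psme1. MHC class II genes had −2.94 for H2-DMb2, −2.28 for H2-DMa and −2.22 for H2-Ab1. The other genes higher in sham had −2.68 for Itpa-ps1, −2.40 for Ccl12, −1.94 for Il18bp, −1.56 for Trim21 and −1.04 for Ccnd1. The immunoglobulin genes had 3.01 for Igha and 3.29 for Igkc. The other genes with values above 0 were lower in cKO sham on average, with 0.58 for Itpa, 0.81 for Erbb3, 0.89 for Dusp6, 1.06 for Etv5, 1.13 for Slc25a30, 1.23 for Nqo1, 1.26 for Hrg and 1.27 for Anxa13. Further values of this group were 1.35 for Glt1d1, 1.72 for Csrnp1, 1.99 for Irs2, 2.35 for Nr4a1, 2.42 for Depp1, 3.88 for Cyp24a1 and 4.13 for Pdk4. The adjusted p ran from 0.000804 (Tgtp1) to 0.0453 (Ifit1 and Xaf1). For Igtp, Tgtp1 and Iigp1 each cKO library was above the WT libraries in sham, and after IR their log2 differences were below 0.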

How the results depend on the processing

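No called gene changed sign in the 23 other settings, of which the filter at a mean of 5 FPKM tested 96 of the 142 and the others tested all, but the number of calls varied. Against 109 higher and 33 lower, a pseudocount of 0.1 gave 102 and 29, no filter on low values 102 and 47, a mean of at least 5 FPKM 81 and 24, scaling to total reads 107 and 31, median-of-ratios scaling 107 and 38, scaling without mitochondrial genes 101 and 39, and limma voom on recovered reads 130 and 42. With the 6 sham libraries alone 137 were higher and 114 lower. With these and without WT sham 1, a setting chosen after seeing the data, 167 were higher and 57 lower. Leaving out each replicate gave 43 to 143 higher and 12 to 65 lower genes, and 41 to 150 genes for the interaction (113 in the full set). The fewest were without WT sham 2 (for the lower genes also without cKO sham 2) and the most without WT IR 2 (for the interaction without WT sham 1).

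The replicate numbers were the same in both genotypes, but nothing in the labels pairs them. Deviations from the group means correlated at −0.122, −0.0828 and −0.123 for same-numbered sham libraries and at 0.0323 to 0.0953 for the others, across genes. With a replicate block on all 12 libraries, 90 genes were higher, 33 lower and 73 passed for the interaction. With the block on the 6 sham libraries alone, 4 were higher and 3 lower.

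Small uncalled differences changed sign. Ifngr1 was −0.00325 with median-of-ratios scaling, −0.054 without WT sham 1 on the sham libraries alone and −0.054 to 0.079 over the leave-outs. Ifngr2 ranged from −0.15 to 0.014 over the leave-outs and Lcn2 from −0.076 to 0.10. Ighm ranged from −0.19 to 0.045 and was 0.045 without WT sham 1 on the sham libraries alone. The causes were not tested.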
